A study of Mus musculus with 29 samples.

Results

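The mouse genome holds very large families of chemoreceptor genes, and their windows were followed in the lung methylomes of allergen-challenged and unchallenged offspring. Members were all autosomal windows whose gene name began with Olfr, Vmn1r or Vmn2r followed by a digit. They numbered 2322 of the 260686 windows in the table, and covered 1503 genes. Of these windows, 1653 belonged to 1181 Olfr genes, 292 to 204 Vmn1r genes and 377 to 118 Vmn2r genes. The choice used gene names and chromosomes, and no methylation value.

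Olfr genes encode odorant receptors, G protein-coupled receptors that olfactory sensory neurons of the nose express 1 gene and 1 allele at a time. Vmn1r and Vmn2r genes encode the 2 receptor families of the vomeronasal organ, which detects pheromones and other social cues. The genes lie in tandem clusters on many chromosomes, are poor in CpG dinucleotides, and sit in silent chromatin in most tissues, where their expression is very low or absent. Their expression in this lung was not analysed here.

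The study asked how exposure of dams to fine airborne particles alters the lung of adult offspring with and without allergic airways disease. Whole-genome methyl-sequencing (WGMS) gave a percentage of methylated cytosine (%DNAm) per window in right lung tissue from 13-week-old Balb/c offspring, all labelled female. Sham (n = 7) offspring came from dams given intranasal saline and received nebulised saline themselves, and Sham-OVA (n = 7) offspring came from such dams but were sensitised to and nebulised with ovalbumin (OVA). PM (n = 7) and PM-OVA (n = 8) offspring came from dams given intranasal PM2.5 particles before mating, through gestation and up to weaning, without and with the same OVA protocol. No allele or transgene was involved, lungs were collected the day after the last OVA dose, and the offspring never inhaled the particles directly. Each library is a separate labelled sample, but the labels do not give litters, so p-values cover the spread between these libraries. Errors given as SD are over the 7 libraries of a group, and over 8 in PM-OVA, unless another number is given. Whole lung tissue mixes many cell types, and a change in cell makeup cannot be told apart from a change within cells.

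A window holds 100 cytosines of CpG dinucleotides over both strands, which is 50 CpG dinucleotides. Of the members, 2295 were tested, with at least 3 values in each group, and 2281 had a value in all 29 libraries. The 27 untested windows were 19 Vmn1r, 6 Vmn2r and 2 Olfr windows, 24 of them on chromosome 7, and 7 had no value in any library. All 2322 members matched a GENCODE M21 gene by identifier on GRCm38. Of the tested windows, 2073 lay in protein coding receptor genes and 222 in pseudogenes. No counts or coverage came with the percentages, so the depth behind a value is unknown and the number of libraries limits the precision. Sham replicate 1 stood apart from the other libraries, with a value in 1224 of 1230 Y chromosome windows against 29 to 46 elsewhere, which goes against its label as female. Its autosomal level did not, since the Sham mean over receptor windows was 72.1% ± 0.535 (SD) with it and 72.0% ± 0.582 (SD, 6 libraries) without it.

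Receptor windows were long because their DNA is poor in CpG. Their median length was 11436 bp against 4688 bp for windows of other autosomal genes. They held a median of 4.59 CpG dinucleotides per kb against 10.8, had a GC content of 38.3% against 44.6%, and repeats masked in the reference covered 39.3% against 22.2% of their bases. Nearly all members (96.8%) overlapped an annotated exon and 72.6% overlapped coding sequence, so most values average a small receptor gene with its intergenic surroundings.

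The sequences below show this range on GRCm38. Each is the stretch of 200 bases with the most CpG dinucleotides in its window, free of annotated untranslated exon, read on the plus strand with every CpG in capitals. Olfr94 is shown for its dense CpG and low methylation level, and the other windows for large falls after OVA. The Olfr94 stretch (chr17:37197066-37197265) holds 27 CpG dinucleotides, that of the pseudogene Olfr647-ps1 (chr7:104167293-104167492) holds 5, that of Olfr1509 (chr14:52451031-52451230) holds 8 and that of the pseudogene Olfr990-ps1 (chr2:85387999-85388198) holds 4.
Olfr94: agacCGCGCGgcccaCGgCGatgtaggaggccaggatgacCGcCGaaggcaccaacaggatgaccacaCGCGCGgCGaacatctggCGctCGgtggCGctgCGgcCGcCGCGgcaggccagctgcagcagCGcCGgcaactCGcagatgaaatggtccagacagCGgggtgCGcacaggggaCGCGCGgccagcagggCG
Olfr647-ps1: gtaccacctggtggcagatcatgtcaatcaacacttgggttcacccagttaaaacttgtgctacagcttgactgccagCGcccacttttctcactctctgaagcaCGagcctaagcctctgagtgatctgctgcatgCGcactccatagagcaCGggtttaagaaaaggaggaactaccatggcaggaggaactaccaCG
Olfr1509: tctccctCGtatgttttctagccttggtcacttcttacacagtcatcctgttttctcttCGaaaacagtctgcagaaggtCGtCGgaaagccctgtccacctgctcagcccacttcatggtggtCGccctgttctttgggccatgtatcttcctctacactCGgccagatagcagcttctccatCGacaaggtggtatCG
Olfr990-ps1: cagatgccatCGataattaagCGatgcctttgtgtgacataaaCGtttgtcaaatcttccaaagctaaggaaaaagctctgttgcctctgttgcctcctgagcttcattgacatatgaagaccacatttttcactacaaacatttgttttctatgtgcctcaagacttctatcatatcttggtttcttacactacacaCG

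Promoters of the receptors were likewise poor in CpG. RefSeq (GRCm38.p6) gave 1123 promoters for 1120 of the 1503 genes, each from 250 bases before to 50 bases after the gene's start. A promoter held a mean of 1.35 CpG dinucleotides in its 300 bases, against 13.0 in promoters of other autosomal genes. No CpG at all was present in 350 receptor promoters (31.2%) against 4.28% of the others, and 2 (0.178%) held 10 or more against 45.6%. The Olfr1509 promoter is shown as an example without any CpG. It is the run of 250 bases before the start at chr14:52450143-52450392 on the plus strand, inside the Olfr1509 window described below.
Olfr1509 promoter: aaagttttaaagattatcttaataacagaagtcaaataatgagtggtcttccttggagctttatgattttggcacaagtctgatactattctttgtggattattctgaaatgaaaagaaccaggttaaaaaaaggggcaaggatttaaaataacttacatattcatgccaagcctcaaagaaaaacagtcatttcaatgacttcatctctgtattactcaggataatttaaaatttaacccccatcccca

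The homeodomain core TAATTA, which reads the same on both strands, was found in 193 receptor promoters (17.2%) against 5.27% of all autosomal promoters. A second motif, the Ebf palindrome TCCC followed 2 bases later by GGGA, was found in 4 receptor promoters (0.356%) against 0.92% of all. The median GC content was 36% in receptor promoters and 53% in all of them, and TAATTA holds no G or C. These are letter matches only, and the windows cannot resolve methylation at promoters of this size. The window holding the start had a median Sham level of 72.4% for the 334 promoters with no CpG, 72.3% for the 689 with 1 to 4 and 73.9% for the 35 with 5 or more.

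Receptor windows were uniformly and moderately methylated in Sham lung. Their median level was 73.1%, with quartiles at 67.8% and 77.4%, against 76.9% with quartiles at 66.2% and 83.7% over all tested windows. A level between 50% and 90% was found for 98.0% of receptor windows against 78.3% of windows of other genes. The low levels typical of CpG-rich promoters were nearly missing, with 3 receptor windows (0.131%) under 10% against 7.18% elsewhere. Levels of 90% or more were also rare, in 11 windows (0.479%) against 7.10%. The families were alike, with medians of 73.3% for Olfr, 72.8% for Vmn1r and 71.6% for Vmn2r.

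**Figure D1:**
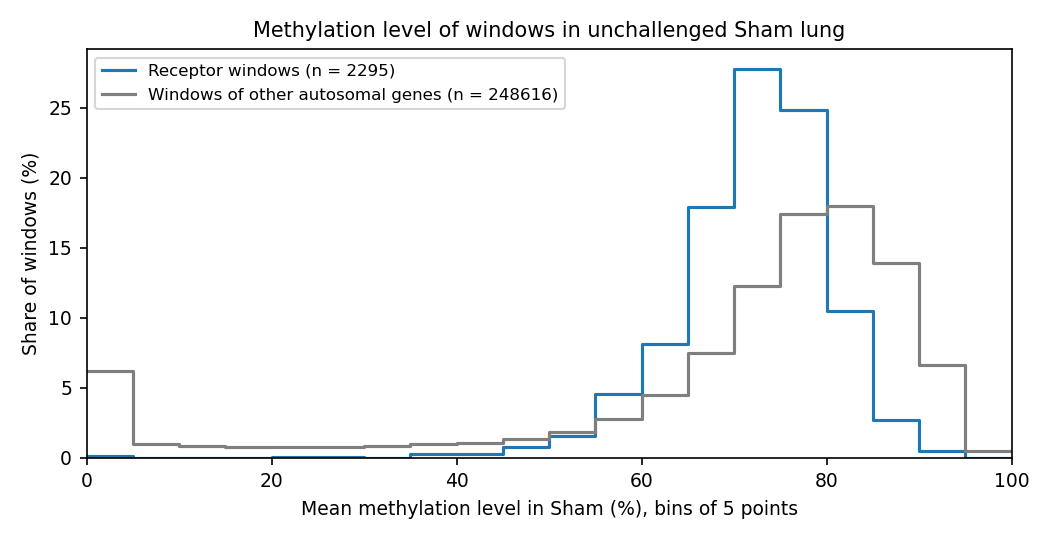
Share of windows (%) in bins of 5 percentage points of the mean %DNAm of the 7 Sham libraries, for the 2295 tested receptor windows and the 248616 tested windows of other autosomal genes. Receptor windows form 1 peak around 70% to 80%, and lack the low group under 10% seen for other genes.

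Length went with level. Across the 2295 windows the correlation of length with Sham level was r = -0.27 (Spearman's rho -0.37), a description over windows that share libraries and base composition. In windows of 10000 to 20000 bp, the most frequent class with 1419 receptor windows, the Sham median was 71.8% against 75.9% in 19717 windows of other genes. Under 2500 bp the order was turned, since the 33 receptor windows had a median of 83.2% and the 36496 others 11.6%. Windows whose reference sequence spans more than 50 CpG dinucleotides were frequent among receptors (21.9% against 10.8%). Their Sham median was 66.6% (n = 482) against 73.9% in the 1813 receptor windows with 50, and in other genes these medians were 71.7% and 77.6%.

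The lowest receptor levels lay in windows with unusually dense CpG. The pseudogene Olfr1372-ps1 had 0.82% ± 0.493 (SD) in Sham in a window of 795 bp (chr11:52168061-52168855) that overlaps the gene Gm26551. Olfr94 had 2.07% ± 0.347 (SD) in the shortest receptor window, 652 bp long (chr17:37196670-37197321), of which 513 bp are annotated as coding and in which 50 CpG dinucleotides lie. Its Sham libraries ran from 1.53% through a median of 2.13% to 2.55%, and those of Sham-OVA from 2.80% through 3.42% to 5.01%. These groups did not overlap, and the rise of 1.45 percentage points had an adjusted p of 0.000431 (limma, Benjamini-Hochberg). In PM-OVA the level was 2.91% ± 0.543 (SD) against 2.31% ± 0.663 (SD) in PM, with an adjusted p of 0.0714. The next Olfr94 window had a Sham level of 22.0% and the one after it 63.0%, so the low level faded within the gene.

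With 1 window counted per gene, next in rank were Vmn1r67 (chr7:10436808-10450716) with 35.9% ± 1.92 (SD) and Olfr56 (chr11:49086117-49090138) with 36.8% ± 1.57 (SD), whose values overlap. Vmn1r67 stayed at 35.1% in Sham-OVA, 36.2% in PM and 35.7% in PM-OVA, with adjusted p of 0.476 and 0.642 for the 2 OVA comparisons (limma).

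The highest levels were 93.3% ± 1.38 (SD) in a Vmn2r58 window of 1077 bp (chr7:41844963-41846039), 93.2% ± 1.27 in another Olfr1372-ps1 window (chr11:52157797-52161069), 92.9% ± 2.37 in Olfr1388 (chr11:49445586-49447143) and 92.7% ± 1.77 in Vmn2r11 (chr5:109050705-109053473). These 4 levels differ by less than their SDs. Masked repeats covered 98.0%, 99.8%, 99.3% and 54.4% of these windows, in that order. Olfr1372-ps1 therefore held both the lowest and nearly the highest level, 92.4 percentage points apart across its 6 windows. Among genes with several windows, levels spread by a median of 5.88 points over 379 Olfr genes, 5.80 over 70 Vmn1r genes and 7.42 over 108 Vmn2r genes.

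Levels repeated closely between libraries. The median within-group SD of a receptor window was 1.58 percentage points against 1.47 in other genes. The 2 windows with the largest spread lay in chromosome 7 arrays and spanned 180 and 96 reference CpG dinucleotides. Vmn1r250 (chr7:22125835-22152197) ran from 71.8% to 92.9% over the 6 Sham libraries with a value and from 56.5% to 95.5% over 7 PM-OVA libraries. Vmn2r38 (chr7:9080467-9083886) was at 46.7% in 1 Sham library and between 74.6% and 89.1% in the other 5 with a value. The fit left out the libraries without a value for both. The longest tested window, Olfr1555-ps1 (chr19:12168673-12232055, 63383 bp), had 71.6% ± 3.17 (SD) in Sham and no adjusted p under 0.05 in any comparison.

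Receptor windows lost a little methylation after OVA challenge, in many places and by small steps. The mean over receptor windows was 71.3%, 71.9% and 72.8% in the lowest, median and highest Sham library, and 69.7%, 70.9% and 72.1% in Sham-OVA. All 7 Sham-OVA libraries lay below the Sham mean and 4 below the lowest Sham library, but the groups overlapped. In offspring of PM dams the values were 71.0%, 72.3% and 73.4% without OVA and 69.8%, 70.0% and 71.1% with it. All 8 libraries of PM-OVA were under the mean of PM, and 7 were under its lowest library. The difference in group means was -1.23 percentage points for OVA in Sham and -2.04 for OVA in PM. For Olfr windows alone the PM and PM-OVA groups did not overlap, at 71.12% in the lowest PM and 71.09% in the highest PM-OVA library. Windows of other genes between 10000 and 20000 bp did not overlap for OVA in PM either. Their group means differed by -2.35 points, beside -2.09 for Olfr windows.

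Windows of other autosomal genes moved less as a whole, by -0.29 and -0.95 points. The receptor mean lay 3.07 points above that of other genes in Sham (range 2.78 to 3.32) and 2.13 points above it in Sham-OVA (1.71 to 2.59), without overlap. It lay 2.94 points above in PM (2.38 to 3.31) and 1.85 points above in PM-OVA (1.56 to 2.27), again without overlap. Compared within windows of 10000 to 20000 bp this turned. There the receptor mean minus that of other genes was -4.45 ± 0.104 points (SD) for Sham and -4.22 ± 0.116 for Sham-OVA. It was -4.50 ± 0.150 for PM and -4.34 ± 0.103 for PM-OVA, so other genes of that length fell slightly more, with ranges that overlapped.

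**Figure D2:**
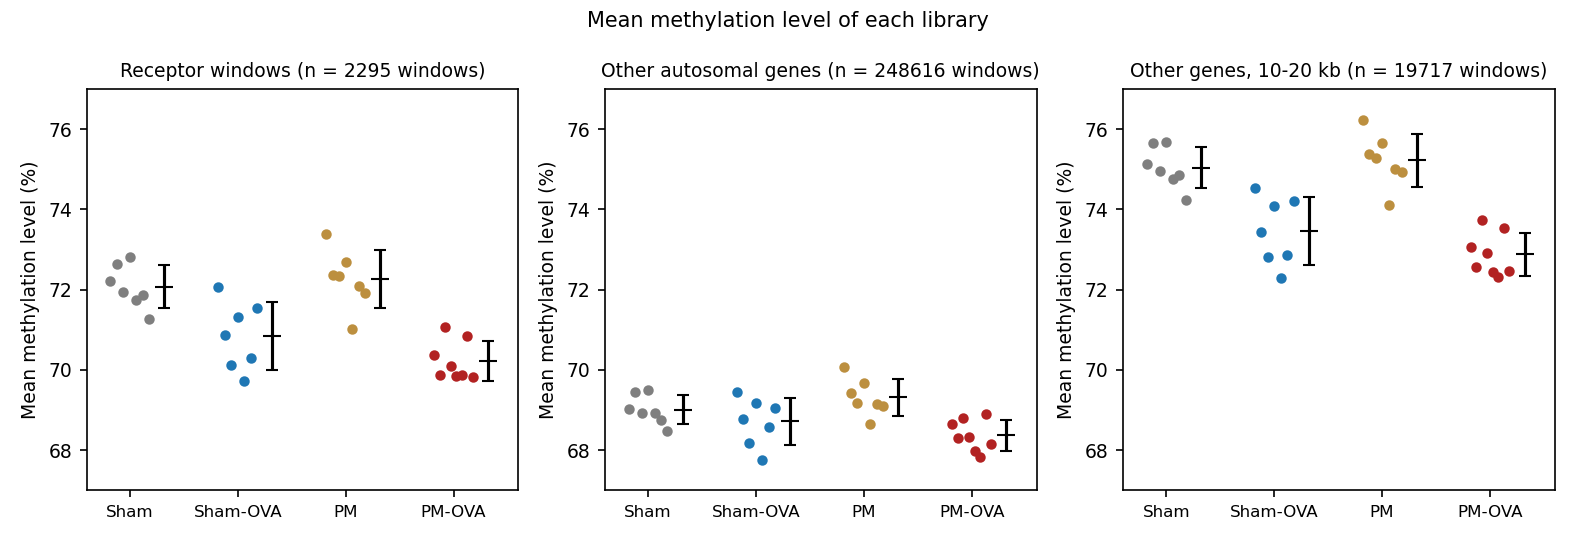
Mean %DNAm of each library (points) with the group mean and SD (black), for receptor windows, windows of all other autosomal genes, and windows of other genes between 10000 and 20000 bp, on axes that start at 67%. Receptor means fall from 72.1% to 70.8% in offspring of Sham dams and from 72.3% to 70.2% in offspring of PM dams, and long windows of other genes fall similarly.

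Markers of the cell types in the tissue moved too. Over 105 windows of 15 immune genes the mean was 70.3% to 71.5% in Sham and 68.0% to 69.3% in Sham-OVA, and 70.5% to 71.8% in PM and 67.9% to 69.1% in PM-OVA, without overlap. Over 102 windows of 15 genes of resident lung cells it was 61.5% to 63.8% in Sham, 63.3% to 65.5% in Sham-OVA, 61.8% to 64.4% in PM and 63.1% to 64.8% in PM-OVA. At an adjusted p under 0.05 (limma) for OVA in Sham, 37 immune windows (35.2%) were lower and 25 (23.8%) higher. Of the lung windows, 7 (6.86%) were lower and 43 (42.2%) higher, against 22.3% and 13.3% of all windows. For OVA in PM these were 42 (40%) and 21 (20%) immune and 12 (11.8%) and 28 (27.5%) lung windows, against 34.8% and 9.26%. The largest difference in the lung list was in Pecam1, at -18.0 and -15.9 points. A window under 25% in Sham was present in 4 of the 15 lung genes and 2 of the 15 immune genes. Expression was not analysed here, so such a window is no measure of gene activity. The part of these movements in the receptor values was not tested.

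No receptor window was a differentially methylated region (DMR), defined as an adjusted p under 0.05 (limma, Benjamini-Hochberg over 259167 windows) with a difference of at least 10 percentage points. The background for such DMRs was 0.775% of all tested windows for OVA in Sham and 0.584% for OVA in PM. At an unadjusted p under 0.05 there were 784 receptor windows (34.2%) for OVA in Sham, against 45% of all windows, and 1422 (62.0%) for OVA in PM, against 51.4%. By the adjusted p alone, 484 receptor windows (21.1%) were lower in Sham-OVA than in Sham, against 22.3% of all windows, and 22 (0.959%) were higher, against 13.3%. For OVA in PM, 1185 (51.6%) were lower, against 34.8% of all windows, and 5 (0.218%) were higher, against 9.26%. On the deposited percentages the share of lower calls was near the background for OVA in Sham and above it for OVA in PM, but with libraries centred it was below the background in both.

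The median difference over receptor windows was -1.29 points for OVA in Sham and -2.09 for OVA in PM, beside -0.41 and -1.03 over all windows. It was below 0 for 86.0% and 94.9% of receptor windows, against 59.1% and 69.2% of all. With each library centred on its own autosomal mean, the medians became -0.91 and -1.13, and 321 windows (14.0%) were lower and 46 (2.00%) higher for OVA in Sham, against 18.1% lower and 18.1% higher of all windows. For OVA in PM, 361 (15.7%) were lower and 33 (1.44%) higher, against 18.8% lower and 18.7% higher. The 2 OVA comparisons share no library, and 388 windows were called lower in both, which is 80.2% of the 484 and 32.7% of the 1185. Over all windows these shares were 88.4% and 56.7%.

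Beside the 22.3% and 34.8% of all windows called lower, Olfr windows were lower in 395 of 1651 (23.9%) for OVA in Sham and 910 (55.1%) for OVA in PM, Vmn1r windows in 45 of 273 (16.5%) and 132 (48.4%), and Vmn2r windows in 44 of 371 (11.9%) and 143 (38.5%). With libraries centred the shares were 16%, 11.0% and 7.28% for OVA in Sham, against 18.1% of all windows, and 17.1%, 18.3% and 7.82% for OVA in PM, against 18.8%. Their medians were -1.35 and -2.16 points for Olfr, -1.19 and -2.01 for Vmn1r, and -1.03 and -1.87 for Vmn2r. Differences between families were not tested. Pseudogene windows (n = 222) had medians of -1.43 and -2.31 and protein coding ones (n = 2073) of -1.26 and -2.05, and windows with a gene start (n = 1329) had -1.35 and -2.12 against -1.20 and -2.05 without one (n = 966). Windows spanning over 50 reference CpG dinucleotides were called lower in 14.1% and 33.8%, and those with 50 in 22.9% and 56.4%, a difference that was not tested. In other genes these shares were 18.3% and 31.4%, and 22.7% and 35.3%. In receptors the median within-group SD was 1.82 against 1.54 points.

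The size of the fall grew with window length up to 20000 bp in receptors and in other genes. From under 2500 bp to 10000 to 20000 bp, the receptor median went from 0.05 to -1.38 points for OVA in Sham and from -1.03 to -2.22 for OVA in PM. In other genes it went from 0.17 to -1.62 and from 0.05 to -2.39. Within the class of 10000 to 20000 bp, 22.4% and 56.0% of receptor windows were called lower against 36.9% and 60.2% of the others. With libraries centred these shares were 15.1% and 16.1% against 29.9% and 32.1%. In shorter windows the order of the medians was the other way, and between 5000 and 10000 bp they were -1.17 and -1.91 points in receptors against -0.88 and -1.62 in other genes. The share of receptor windows called lower for OVA in Sham in that class was nevertheless 19.7%, against 28.0% of the others, and for OVA in PM it was 47.7%, against 45%. With libraries centred it was 12.5%, against 23.0%, for OVA in Sham and 16.5%, against 25.3%, for OVA in PM.

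**Figure D3:**
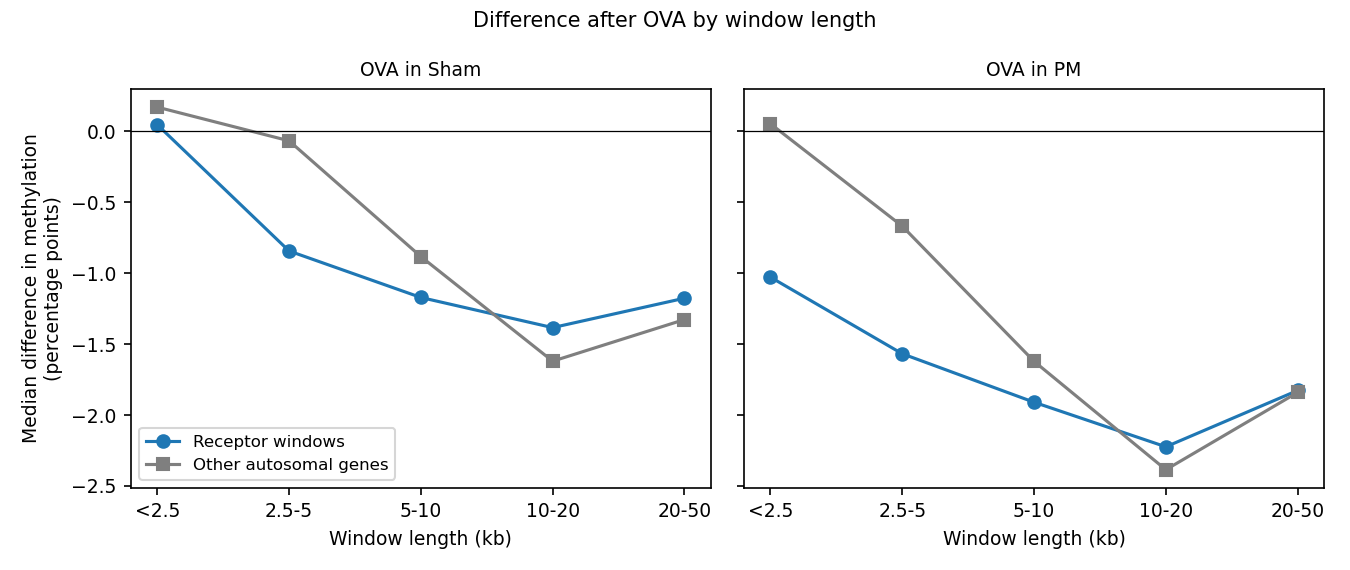
Median difference in %DNAm (percentage points, OVA minus no OVA) by window length (kb) for receptor windows and other autosomal genes. Both lines descend to the class of 10 to 20 kb, where receptors are at -1.38 and -2.22 and other genes at -1.62 and -2.39 points, and receptors lie lower in the shorter classes.

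The fall was spread over the genome. With windows closer than 1 Mb joined, receptors formed 69 clusters, of which 37 held at least 15 windows and 2202 windows in all. Every one of these 37 had a median difference below 0 in both OVA comparisons, between -0.18 and -2.27 points for OVA in Sham and between -1.04 and -3.20 for OVA in PM. These are medians of the deposited percentages, in which the mean over all autosomal windows shifted by -0.37 points for OVA in Sham and -0.96 for OVA in PM. The cluster at -0.18 (chr4:43695354-43861652, 18 windows) thus fell less than that shift for OVA in Sham. Windows in a cluster are neighbours and no replicates of each other.

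The largest cluster, on chromosome 2 (chr2:85327383-90414218, Olfr987 to Olfr1274, 271 windows), had a Sham median of 73.0% and medians of -1.86 and -2.41 points, with 95 (35.1%) and 181 (66.8%) windows called lower, beside 22.3% and 34.8% of all windows. Its median window length was 12875 bp, and in other genes 36.9% and 60.2% of windows between 10000 and 20000 bp were called lower. The class I odorant receptors, the family shared with fish, lie on chromosome 7 (chr7:102472461-105373930, 185 windows), where the Sham median was 75.6% and the medians were -1.31 and -2.14. Among these 37 clusters, the strongest fall for OVA in Sham was in a cluster of 15 windows on chromosome 1 (chr1:92474621-92629757, Olfr1416 to Olfr12), with -2.27 and -2.85. For OVA in PM it was on chromosome 4 (chr4:118658383-118940110, Olfr62 to Olfr1328, 22 windows), with -1.71 and -3.20.

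The odorant receptors beside the major histocompatibility complex (chr17:37081859-38335615, Olfr90 to Olfr136, 63 windows) had a Sham median of 67.1% and medians of -0.58 and -1.35, with 3 (4.76%) and 13 (20.6%) windows called lower against 22.3% and 34.8% of all windows. In the Vmn1r array at chr7:20091585-24072204, 60 of 79 windows could be tested, and 1 (1.67%) and 5 (8.33%) were called lower, against the same 22.3% and 34.8%. The lowest Sham median of the 37, 63.9%, was in the chromosome 1 cluster from Olfr16 to Olfr220 (chr1:172939690-174455887), where 80.6% of windows spanned over 50 reference CpG dinucleotides, and the highest, 80.3%, in the chromosome 15 cluster from Olfr288 to Olfr279 (chr15:98181804-98504756).

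**Figure D4:**
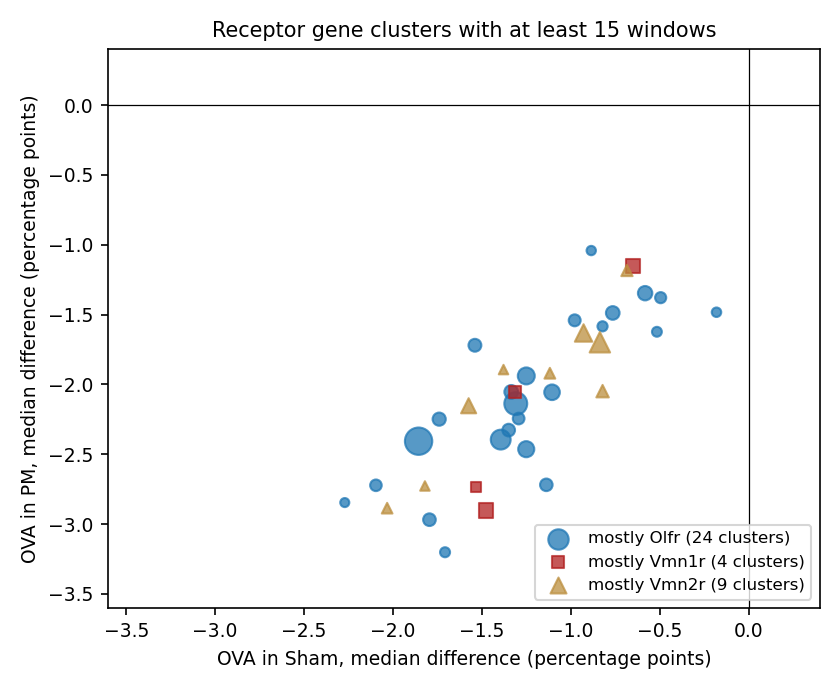
Median difference in %DNAm (percentage points) for OVA in Sham (x axis) and OVA in PM (y axis) in the 37 receptor clusters with at least 15 windows, with area growing with the number of tested windows. Every cluster lies below and left of 0, from -0.18 to -2.27 on the x axis and from -1.04 to -3.20 on the y axis.

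The largest called fall in both comparisons was in Olfr647-ps1, a pseudogene of the class I cluster (chr7:104166395-104172875), whose sequence is given above. Its Sham libraries ran from 68.7% through a median of 69.9% to 72.6%, and its Sham-OVA libraries from 61.7% through 63.0% to 64.3%. PM libraries ran from 68.6% through 71.5% to 72.9% and PM-OVA libraries from 57.8% through 62.1% to 62.9%. The groups were apart in both kinds of offspring. The difference was -7.53 points for OVA in Sham (log2 ratio of methylated to unmethylated -0.48 ± 0.05 SE, adjusted p = 1.22e-07, limma) and -9.77 for OVA in PM (-0.62 ± 0.05 SE, adjusted p = 1.17e-09). The adjoining Olfr648 window differed by -4.21 and -2.77 points (adjusted p = 0.000568 and 0.0103, limma), whereas the window on the other side, in Olfm5, differed by -0.17 and -0.97 points (adjusted p = 0.896 and 0.346, limma).

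Olfr1509 (chr14:52445851-52451567), a protein coding odorant receptor whose coding sequence fills 924 bp of the window, had the next largest called fall for OVA in Sham. Its Sham libraries ran from 58.8% through 61.1% to 62.6% and Sham-OVA libraries from 51.8% through 54.1% to 55.5%. PM libraries ran from 58.8% through 61.4% to 62.5% and PM-OVA libraries from 51.6% through 53.7% to 55.0%. The groups were again apart, with -7.41 points (adjusted p = 1.46e-07, limma) and -7.58 points (adjusted p = 3.77e-08). The fall was called in 1 of the 3 adjoining Olfr1509 windows, and the others differed by -0.25 and 0.54 points and by 0.35 and -1.34 points, with adjusted p from 0.148 to 0.893 (limma). Beyond the first of them lies a window of Trav1, a variable segment of the T cell receptor alpha locus, which rose by 2.81 and 2.59 points (adjusted p = 0.0219 and 0.0238, limma).

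Olfr56 is annotated across 18 windows, and 2 adjoining ones stood out (chr11:49076480-49086114 and chr11:49086117-49090138). Both overlap Ifi47, an interferon-inducible GTPase, so the name of the receptor does not say which gene the value belongs to. In the second, with its low level, Sham libraries ran from 35.1% through 36.3% to 39.2% and Sham-OVA libraries from 26.5% through 30.6% to 32.2%. The PM libraries ran from 31.9% through 35.7% to 37.8% and the PM-OVA libraries from 26.0% through 29.1% to 34.1%, with overlap. The differences were -6.58 points (adjusted p = 4.88e-05, limma) and -6.11 points (adjusted p = 4.79e-05). In the first window, levels were 63.8% to 68.4% in Sham and 57.7% to 61.9% in Sham-OVA, and 63.4% to 67.9% in PM and 57.2% to 61.8% in PM-OVA, without overlap. The differences were -5.95 points (adjusted p = 7.1e-06, limma) and -6.26 points (adjusted p = 1.63e-06).

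Olfr990-ps1 (chr2:85383298-85394997) fell from 80.6% ± 1.35 (SD) to 75.5% ± 1.47 (SD) and from 81.2% ± 1.35 (SD) to 74.9% ± 1.94 (SD), with no overlap between groups (adjusted p = 2.38e-05 and 7.1e-07, limma). Here the neighbours moved along: the 3 windows on each side differed by -2.11 to -5.23 points for OVA in Sham and by -3.07 to -5.72 for OVA in PM, all with an adjusted p under 0.05. Olfr229 (chr9:39902086-39910489) fell from 73.9% ± 1.37 (SD) to 68.9% ± 1.93 (SD) and from 74.1% ± 1.73 (SD) to 68.2% ± 1.15 (SD). The windows on its sides differed by -0.31 and -0.92 points for OVA in Sham, and by -3.08 (Olfr972, adjusted p = 0.0213, limma) and -1.01 points for OVA in PM.

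A pair of neighbouring genes on chromosome 6 moved in opposite directions. Olfr460 (chr6:40564959-40573038) fell from 79.1% ± 1.51 (SD) to 73.8% ± 1.94 (SD) in offspring of Sham dams (adjusted p = 1.23e-05, limma). The window before it, in Olfr461 (chr6:40547693-40556743), rose from 59.1% ± 2.35 (SD) to 65.2% ± 4.01 (SD), the largest called rise of any receptor window (6.09 points, adjusted p = 0.00811, limma). Its Sham libraries ran from 55.2% through 59.3% to 62.9% and its Sham-OVA libraries from 60.4% through 66.2% to 70.1%, with overlap. For OVA in PM, Olfr460 differed by -3.57 points (adjusted p = 0.000613, limma) and Olfr461 by 2.42 points (adjusted p = 0.273). Clec5a, a myeloid lectin gene 2 windows beyond the Olfr460 window, differed by -6.03 and -5.69 points (adjusted p = 1.56e-06 and 1.7e-06, limma).

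The 2 vomeronasal receptors among the largest called falls were Vmn2r43 and Vmn2r22. Vmn2r43 (chr7:8258748-8277215, 72.2% repeats) went from 67.1% ± 3.05 (SD) to 59.9% ± 3.56 (SD) for OVA in Sham (adjusted p = 0.0214, limma), while for OVA in PM it went from 62.1% ± 6.38 (SD) to 60.5% ± 5.35 (SD) (adjusted p = 0.589). Vmn2r22 (chr6:123601699-123619809, 62.0% repeats) went from 81.9% ± 4.58 (SD) to 73.6% ± 2.84 (SD) for OVA in PM (adjusted p = 0.000827, limma), and differed by -3.30 points for OVA in Sham (adjusted p = 0.163). They span 98 and 104 reference CpG dinucleotides, and leaving out single libraries ended the Vmn2r43 call in 2 of 14 fits.

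Rises were few and mostly small. Olfr48 (chr2:89847890-89859660) was higher in both comparisons, at 67.3% and 71.4% for OVA in Sham (adjusted p = 0.0151, limma) and at 68.1% and 71.2% for OVA in PM (adjusted p = 0.0471), as was Olfr281 (chr15:98451999-98454703), by 3.66 points (adjusted p = 0.00713) and 2.86 points (adjusted p = 0.0247). Vmn2r84 (chr10:130378885-130396923) rose by 3.69 points (adjusted p = 0.000965, limma) and 1.95 points (adjusted p = 0.0495). Its neighbour Tespa1, a gene of T cell signalling, rose by 4.48 and 2.16 points in the nearer of its windows. Among the other windows named for their rises, called for OVA in Sham and not for OVA in PM were Olfr539 (3.87 points), Olfr225 (3.69 points) and Olfr71 (3.68 points), and called for OVA in PM and not for OVA in Sham were Olfr1513 (1.96 points) and Olfr266 (1.92 points). For these 5 windows the interaction had adjusted p of 0.593 to 0.989 (limma), so a difference between the arms was not shown. Leaving out single libraries ended the call for OVA in PM in 11 of 15 fits for Olfr48, 12 for Vmn2r84, 7 for Olfr266, 6 for Olfr1513 and 2 for Olfr281. With only the PM and PM-OVA groups fitted, Olfr1513 had an adjusted p of 0.0576 (limma).

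**Figure D5:**
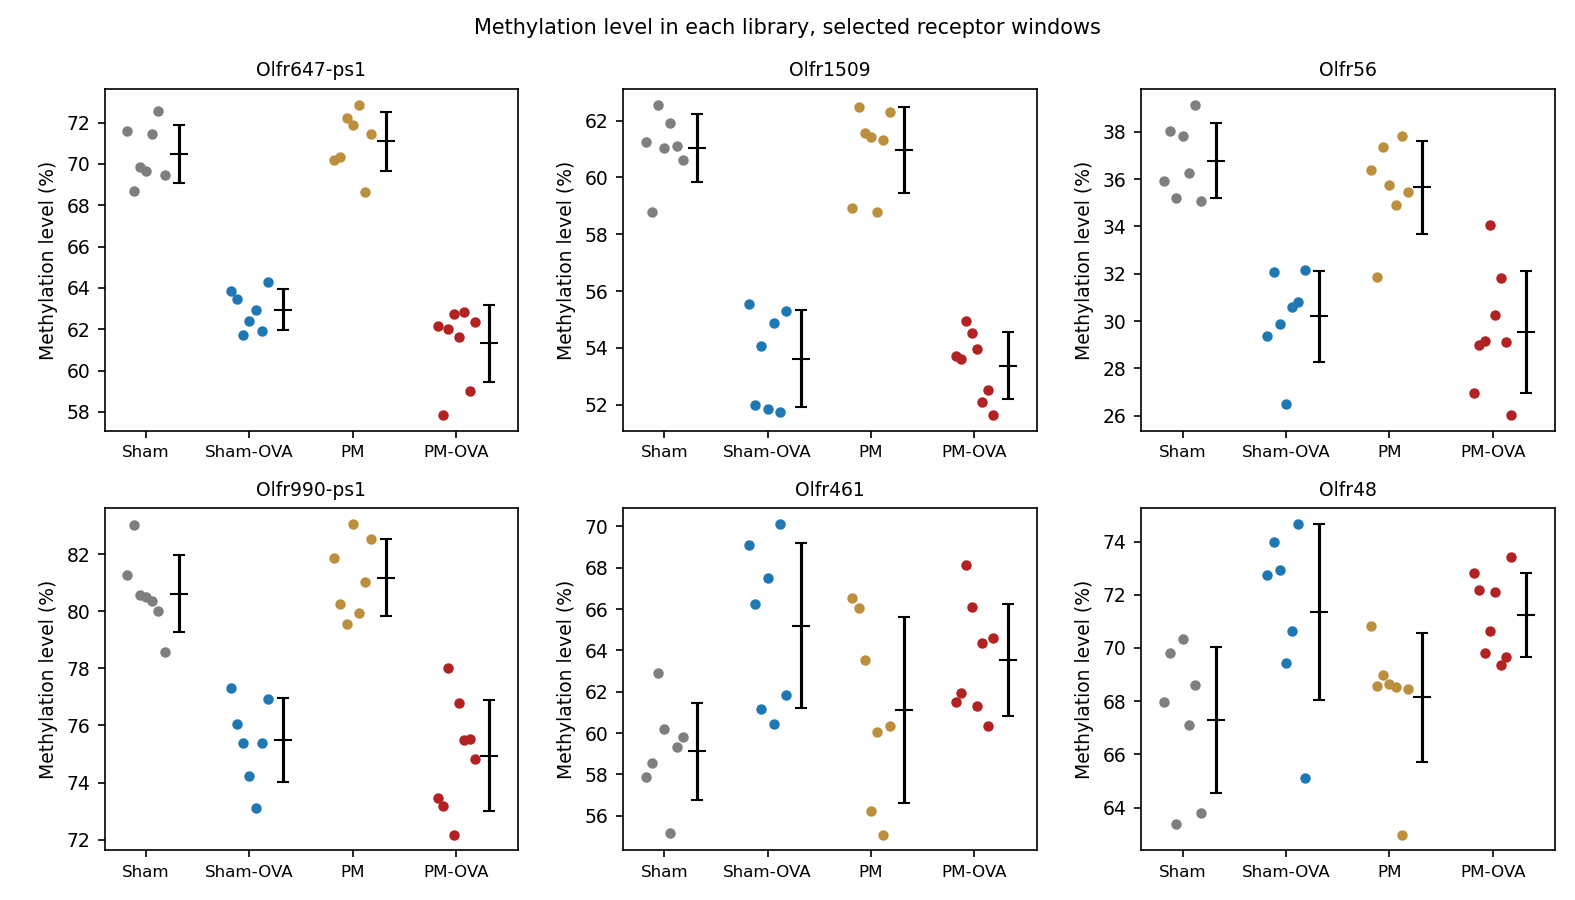
%DNAm in each library (points) with group mean and SD (black) for 6 receptor windows, each on its own axis, which does not start at 0. The Olfr56 panel is the window with the low level. Olfr647-ps1, Olfr1509 and Olfr990-ps1 are lower in every OVA library than in any library of the matching unchallenged group, and Olfr461 and Olfr48 overlap.

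Maternal exposure on its own moved no receptor window past the threshold. Comparing PM with Sham, and PM-OVA with Sham-OVA, found 0 DMRs and 0 windows with an adjusted p under 0.05 (limma), as over all windows, where both shares were 0%. At an unadjusted p under 0.05 there were 76 receptor windows (3.31%) without OVA, against 5.79% of all windows, and 198 (8.63%) with OVA, against 5.96%. Of the 198, 189 were lower in PM-OVA, as were 13190 of the 15450 such windows in the whole table. The means over receptor windows differed by 0.19 points without OVA and by -0.62 with OVA, beside 0.32 and -0.34 in other autosomal genes, and the groups overlapped. Without PM replicate 1 the receptor median of the difference without OVA went from 0.21 to 0.02 points. With libraries centred the receptor median was -0.09 points without OVA, the opposite sign, and -0.34 points with OVA in place of -0.62.

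The smallest p for PM without OVA belonged to Vmn2r32 (chr7:7478122-7486340), at 60.2% ± 1.31 (SD) for Sham against 56.5% ± 1.62 (SD) for PM (adjusted p = 0.696, limma), followed by Olfr286 (chr15:98226748-98230174) with 82.3% ± 1.20 (SD) and 85.0% ± 1.15 (SD) (adjusted p = 0.724). For PM with OVA they belonged to Olfr1428 (chr19:12109489-12114624), with 88.1% ± 0.603 (SD) in Sham-OVA and 86.3% ± 0.513 (SD) in PM-OVA (adjusted p = 0.676, limma), and Vmn1r188 (chr13:22089797-22097972), with 52.4% ± 2.38 (SD) and 47.7% ± 1.80 (SD) (adjusted p = 0.786).

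Whether the response to OVA differed between the maternal arms was tested by the interaction. The receptor median was -0.84 points beside -0.59 over all windows, and -0.26 with libraries centred, and 0 windows had an adjusted p under 0.05 (limma), and 160 (6.97%) had an unadjusted p under 0.05 against 7.40% of all windows. The smallest p belonged to Olfr689 (chr7:105317181-105327629), which went from 68.0% ± 1.97 (SD) to 71.2% ± 0.867 (SD) with OVA in offspring of Sham dams and from 70.3% ± 1.24 (SD) to 67.7% ± 2.43 (SD) in offspring of PM dams (adjusted p = 0.496, limma). Olfr1428 followed with an adjusted p of 0.502. A difference in the response to OVA between the arms was thus tested at each window and shown at none.

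Genes that work with the receptors were called about as frequently as all windows. A list of 30 genes of olfactory signal transduction and receptor choice, such as Gnal, Adcy3 and Lhx2, matched 27 genes with 584 windows. For OVA in Sham, 133 of these windows (22.8%) were called lower and 99 (17.0%) higher, against 22.3% and 13.3% of all windows. For OVA in PM, 198 (33.9%) were lower and 64 (11.0%) higher, against 34.8% and 9.26%. The medians were -0.28 and -0.94 points, beside -0.41 and -1.03 over all windows. Of the 584 windows, 2 were DMRs in each comparison, beside 0.775% and 0.584% of all windows. For OVA in Sham both lay in Gnai2, and for OVA in PM 1 lay in Gnai2 and 1 in Reep1. A window under 25% in Sham was present in 17 of the 27 genes. The other chemoreceptor families, with 80 windows of 57 genes for trace amines, formyl peptides and taste, had a median of -1.06 points for OVA in Sham, and quartiles of -2.86 and -1.34 points for OVA in PM. They had 0 DMRs. For OVA in Sham, 17 windows (21.2%) were called lower and 3 (3.75%) higher, against 22.3% and 13.3% of all windows. For OVA in PM, 40 of the 80 (50%) were lower and 2 (2.5%) higher, against 34.8% and 9.26%. All the higher calls were in Tas1r1, with differences of up to 8.37 and 8.19 points. With libraries centred, 16 of the 80 were lower and 3 higher for OVA in PM, against 18.8% and 18.7% of all windows.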

How the data were processed

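WGMS libraries of 29 samples were grouped by their labels. Per the study's methods, the authors used enzymatic conversion, Trim Galore for read trimming and DRAGEN for alignment (GRCm38) and calling. With SeqMonk they computed the deposited percent methylation of each window, named after an overlapping gene, which needed at least 10 informative CpG positions. Counts and coverage were not used here, so no count model was fitted. Percentages were changed to log2 ratios of methylated to unmethylated signal, with 1 percentage point added to both, and fitted with limma 3.58.1 (R 4.3.3, data.table version 1.17.8) on 4 groups, with 2-sided moderated tests adjusted by Benjamini-Hochberg over 259167 windows. Windows needed 3 values in each group. DMR calls required at least 10 percentage points beside the adjusted p under 0.05. Replicate numbers, taken from the sample titles, were not used as a block, since same-numbered libraries did not deviate together. Library names are numbered differently in Sham-OVA and PM-OVA, where some PM-OVA names carry Rel, and pairing by those names was not tested.

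Window sequences, GENCODE M21 annotation and RefSeq promoters were read with Python 3.11.15 (pandas 2.3.3, numpy 2.4.6), and figures were drawn with matplotlib 3.10.9. Clusters joined windows under 1000000 bp apart. Named windows were, for each OVA comparison, the 6 largest called rises and falls (1 window per gene), for the others the 2 smallest p-values, and the 4 lowest and 4 highest Sham levels, the 2 largest spreads, and the shortest and longest window. Members and lists were chosen with earlier results of these data known.

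The fit was tested on simulated data for OVA in Sham: 198 of 200 changed windows among 259167 were recovered, with 0 unchanged ones called as DMR. For OVA in PM, 6 of 200 receptor windows lowered by 3 points, with nearly all other windows unchanged, were recovered by adjusted p. Alternatives covered the offset, scale, centring, filters, minimum difference, subsets, the block and leaving out each library.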

Additional observations from a re-analysis of the deposited data

Results flagged for a closer look

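Of the 148 groups of 4 to 10 libraries tested for a single library far from the rest, 7 were marked, and chance marks about 5% of such groups. For Olfr48, PM replicate 6 had 63.0% where the other PM libraries had 68.5% to 70.8%. For Vmn1r188, Sham replicate 1 had 57.0% and the others 49.0% to 52.0%. For the low Olfr1372-ps1 window, PM-OVA replicate 5 had 3.65% and the others 0.844% to 2.12%. For the high Olfr1372-ps1 window, Sham-OVA replicate 7 had 93.5% and the others 90.4% to 91.4%. For Olfr94, PM-OVA replicate 4 had 1.66% and the others 2.63% to 3.36%, and for Vmn1r67 the same library had 38.4% and the others 34.7% to 36.3%. For Vmn2r38, Sham replicate 2 had 46.7% and the others 74.6% to 89.1%. What set these libraries apart was not tested.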

How the results depend on the processing

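With each library centred, receptor windows with an adjusted p under 0.05 for OVA in PM numbered 394 in place of 1190, their median difference was -1.13 points, and 19 windows of the other chemoreceptor families were called in place of 42. This alternative removes the autosomal shift of each library, which was -0.37 points for OVA in Sham and -0.96 for OVA in PM. With a minimum difference of 5 points the DMR counts became 8 and 15, and with none 506 and 1190. A difference of 5 points, whatever its p, was reached by 0.697% and 0.741% of receptor windows against 6.21% and 6.01% of all windows. Vmn1r windows alone gave 46 and 132 calls, and Vmn2r windows alone 46 and 144. The mean Sham level was 72.1% in place of the median of 73.1%, an alternative chosen after seeing the data. Leaving out each library in turn gave 377 to 596 calls for OVA in Sham and 953 to 1253 for OVA in PM, and 0 to 1 DMRs for OVA in PM, the 1 being Olfr647-ps1 (-10.2 points) without PM replicate 6. Libraries with the same replicate number in their titles did not deviate together (42 pairs, correlations from -0.04 to 0.0987), and 8 of 29 libraries correlated best with their own number. With the replicate block, which used the windows with a value in every library, 505 windows were called for OVA in Sham and 1069 for OVA in PM. Among the named windows, 4 values lost significance outside the leave-one-out fits and 197 kept their direction and side of the threshold. These were Olfr48, Vmn2r84 and Olfr266 for OVA in PM with the block (adjusted p = 0.0706, 0.084 and 0.0664, limma) and Olfr1513 with the 2 groups fitted alone (adjusted p = 0.0576). Leaving out a library moved 40 values past the threshold to the weaker side and left 409 on the same side. No called value changed sign, but the receptor median for PM without OVA, which had no call, went from 0.21 to -0.09 points with libraries centred. The counting error of a window is unknown, since its depth is.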
